A study of Mus musculus with 4 samples.

Results

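Collagen chain genes and the genes of the enzymes that modify collagen were followed in mouse tumour lines with and without re-expressed Smarcb1. The members were all genes whose symbol in the array's annotation is that of a collagen chain, a lysyl oxidase, a lysyl hydroxylase, a prolyl 4-hydroxylase alpha chain or a prolyl 3-hydroxylase. The rule found 58 of 19938 genes, 44 collagen chains and 14 enzymes, each read from its brightest probe set with a single symbol. All 58 passed the filter on low signal (mean log2 signal of at least 4.27), which left 13956 tested genes. Loxl2 is not among the 58, because its probe set carries a second symbol.

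The groups were line 365 with Smarcb1, line 365 with empty vector, line 167 with Smarcb1 and line 167 with empty vector, with 1 array for each. SWI/SNF complexes move nucleosomes and open chromatin, and Smarcb1 encodes one of their constant subunits, whose loss defines malignant rhabdoid tumours. Both lines came from soft tissue tumours lacking Smarcb1 that arose in p53 null mice heterozygous for Smarcb1, on a C57BL6/SV129J background, so every group shares the p53 null, Smarcb1 deficient genotype. The virus was pMIG, a retroviral vector, and total RNA was taken 3 days after infection, when the submitters expected direct targets of Smarcb1 to be enriched. Each line is a single tumour line, and no label speaks of repeat cultures, so p-values measure only the spread between these arrays.

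Collagens are trimeric proteins of the extracellular matrix. Fibrillar collagens such as types I, III and V build the fibrils of connective tissue, whereas network collagens such as types IV and VIII build sheets, with type IV in basement membranes. In the endoplasmic reticulum, prolyl hydroxylases modify prolines that stabilise the triple helix, and lysyl hydroxylases modify the lysines that later carry cross-links. Lysyl oxidases act outside the cell and start the cross-linking of collagen and elastin. In connective tissue most fibrillar collagen is made by mesenchymal cells such as fibroblasts.

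The vector labels were checked on Smarcb1 itself, which had log2 9.61 with Smarcb1 and 6.01 with empty vector in line 365, and 7.83 with Smarcb1 and 4.61 with empty vector in line 167. Over the lines it was higher with Smarcb1 by 3.41 ± 0.20 (moderated SE, n = 2 lines, limma adjusted p = 0.0371). Of 10 mesenchymal markers, at least 9 lay above the filter level on each array, and vimentin (Vim) read between 13.27 and 13.53. However, 4 of the 10 were called lower and 1 higher in line 365, beside 5.64% and 5.31% of all tested genes. Of markers of other cell types, 3 of 8 leukocyte, 5 of 6 epithelial and 0 of 3 osteoblast markers reached the filter level on each array, as did 3 or 4 of 5 skeletal muscle and 1 to 3 of 5 chondrocyte markers. The leukocyte-defining gene Ptprc read 3.66 to 4.06 and the highest epithelial value was 6.04, whereas Cd68, a lysosomal protein gene of macrophages, read 8.18 to 9.95. In this bulk RNA, fewer cells of a type and less RNA per cell cannot be told apart.

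The lines differed in which collagens had the higher signal. Line 365 was higher for the basement membrane chains Col4a1 and Col4a2 and for Col8a1, and lower for the fibrillar and fibril-associated chains Col3a1, Col5a2 and Col12a1, for the type VI chains Col6a1 and Col6a2 and for Lox. In line 365 Col3a1, Col5a2, Col12a1, Col6a1 and Col6a2 read log2 4.68 to 6.69. In line 167 Col4a1 and Col4a2 read 5.42 to 5.98. Whether these low values exceed background was not shown, so the sizes of these line differences are uncertain. In the limma test of line 365 against line 167, 16 of 58 members passed, of which 4 were higher and 12 lower in line 365. Over all tested genes 5.31% were called higher, 5.64% lower and 10.9% either way, against 6.9%, 20.7% and 27.6% of the members. The median line difference of the members was -0.19, beside -0.02 over all tested genes.

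Signal for Lox, the lysyl oxidase that cross-links collagen and elastin, was log2 3.85 with Smarcb1 and 3.81 with empty vector in line 365, against 11.93 with Smarcb1 and 10.97 with empty vector in line 167. Both arrays of line 365 lay below the filter level, so signal above background was not shown there and the size of the gap is uncertain. The fitted difference was -7.62 ± 0.27 (limma adjusted p = 0.00223).

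Among fibrillar chains, Col3a1, the sole chain of type III collagen, had log2 6.24 with Smarcb1 and 6.14 with empty vector in line 365, and 11.65 with Smarcb1 and 11.12 with empty vector in line 167. Col5a2, a chain of the type V collagen that starts fibril formation, had 5.24 with Smarcb1 and 5.13 with empty vector in line 365, and 11.38 with Smarcb1 and 10.78 with empty vector in line 167. The arrays of the lines were far apart for both genes, whichever virus the cells carried. The line differences were -5.19 ± 0.17 for Col3a1 and -5.90 ± 0.19 for Col5a2, each with limma adjusted p = 0.00223. Col5a1, the partner chain in type V collagen, differed less, by -1.06 ± 0.17 (adjusted p = 0.0297). Fibrillar chains of cartilage were flat over the 4 arrays, with Col2a1 between log2 6.06 and 6.54 and Col11a2 between 5.95 and 6.36.

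Type I collagen is built from Col1a1 and Col1a2 chains, and it did not separate the lines as cleanly. Col1a1 had log2 6.41 with Smarcb1 and 6.38 with empty vector in line 365, against 10.56 with Smarcb1 and 7.91 with empty vector in line 167. Col1a2 had 5.75 with Smarcb1 and 5.75 with empty vector in line 365, against 8.76 with Smarcb1 and 7.02 with empty vector in line 167. Line 365 was lower for each chain with either vector, by -4.15 with Smarcb1 and -1.53 with empty vector for Col1a1, and by -3.01 with Smarcb1 and -1.27 with empty vector for Col1a2. Limma's adjusted p for the line was 0.0559 for Col1a1 (-2.84 ± 0.62), just outside the threshold of 0.05, and 0.0491 for Col1a2 (-2.14 ± 0.44), just inside it. Over the other settings it ranged from 0.0278 to 0.0706 for Col1a1 and from 0.0239 to 0.0604 for Col1a2, so neither call is stable.

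FACIT collagens lie on the surface of fibrils. Col12a1 had log2 4.68 with Smarcb1 and 4.86 with empty vector in line 365, against 10.75 with Smarcb1 and 10.90 with empty vector in line 167. Its line difference of -6.06 ± 0.17 (limma adjusted p = 0.00223) was nearly the same with either virus, at -6.07 with Smarcb1 and -6.05 with empty vector. Col16a1 had log2 6.65 with Smarcb1 and 6.53 with empty vector in line 365, against 8.34 with Smarcb1 and 7.68 with empty vector in line 167, a line difference of -1.42 ± 0.22 (adjusted p = 0.027). Col14a1, a FACIT collagen on type I fibrils, went the other way and was higher in line 365 by 1.48 ± 0.30 (adjusted p = 0.047, and 0.054 without the intensity trend). Its line difference was 1.99 with Smarcb1 and 0.98 with empty vector. Its arrays overlapped between the lines, with log2 5.63 with empty vector in line 365 and 5.83 with Smarcb1 in line 167.

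The type VI chains Col6a1, Col6a2 and Col6a3 assemble into beaded filaments around cells. Col6a1 had log2 6.44 with Smarcb1 and 6.21 with empty vector in line 365, against 9.64 with Smarcb1 and 9.94 with empty vector in line 167. Col6a2 had 5.65 with Smarcb1 and 6.69 with empty vector in line 365, against 9.29 with Smarcb1 and 9.61 with empty vector in line 167. Line 365 was thus lower for both chains, by -3.46 ± 0.20 for Col6a1 (limma adjusted p = 0.00379) and by -3.28 ± 0.23 for Col6a2 (adjusted p = 0.00523). Col6a3, the third chain, did not pass (-1.15 ± 0.42, adjusted p = 0.148). It had log2 4.90 with Smarcb1 and 5.22 with empty vector in line 365, against 6.88 with Smarcb1 and 5.55 with empty vector in line 167. The line difference was thus -1.98 with Smarcb1 and -0.32 with empty vector. The remaining members of this class, Col6a4, Col6a5 and Col6a6, differed between the lines by -0.26 to -0.01.

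Of the 9 network chains, 3 were called higher in line 365 and 0 lower, and the median line difference of the class was 0.12. Col4a1 had log2 10.34 with Smarcb1 and 10.51 with empty vector in line 365, against 5.89 with Smarcb1 and 5.42 with empty vector in line 167. Col4a2, its partner in the common type IV trimer, had 9.81 with Smarcb1 and 9.87 with empty vector in line 365, against 5.98 with Smarcb1 and 5.83 with empty vector in line 167. Both chains were thus high on both arrays of line 365 and low on both arrays of line 167, with line differences of 4.76 ± 0.22 for Col4a1 (limma adjusted p = 0.00296) and 3.94 ± 0.17 for Col4a2 (adjusted p = 0.0025). Col8a1, a short chain of the network-forming type VIII collagen, had 10.23 with Smarcb1 and 10.04 with empty vector in line 365, against 7.70 with Smarcb1 and 5.79 with empty vector in line 167. It was higher in line 365 by 3.39 ± 0.42 (adjusted p = 0.017). The other type IV chains did not follow: the line difference was -0.24 for Col4a3, 0.05 for Col4a4, 0.12 for Col4a5 and 0.44 for Col4a6, and none of these passed. Col8a2, the other type VIII chain (-0.19), and Col10a1, a chain of growth plate cartilage (-0.17), did not pass either. Col4a6 had log2 7.53 with Smarcb1 and 8.14 with empty vector in line 365, against 7.85 with Smarcb1 and 6.94 with empty vector in line 167, so its arrays overlapped between the lines.

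Of the 10 mesenchymal markers, 4 were called lower in line 365, as were the called fibrillar and type VI chains, and 1 was called higher. Over all tested genes 5.64% were called lower and 5.31% higher. Fn1, one of the 4, is itself a matrix gene and is also in the fibril-associated list. Pdgfrb, a growth factor receptor gene, had log2 5.03 with Smarcb1 and 5.12 with empty vector in line 365, against 9.36 with Smarcb1 and 8.95 with empty vector in line 167 (-4.08 ± 0.21, limma adjusted p = 0.00348). The cadherin gene Cdh11 had log2 7.04 with Smarcb1 and 5.88 with empty vector in line 365, against 10.75 with Smarcb1 and 10.12 with empty vector in line 167 (-3.97 ± 0.19, adjusted p = 0.00303). Eng (-1.45 ± 0.20, adjusted p = 0.0225) and Fn1 (-1.71 ± 0.35, adjusted p = 0.0496) were also lower in line 365, and S100a4 was higher (0.76 ± 0.13, adjusted p = 0.0341). The other markers were not called: Cdh2 was higher in line 365 (1.00 ± 0.37, adjusted p = 0.152). Vim, Pdgfra, Thy1 and Nt5e differed by -0.40 to -0.10. The summed mesenchymal marker signal, most of it from Vim, was log2 13.89 with Smarcb1 and 13.64 with empty vector in line 365, against 14.19 with Smarcb1 and 13.92 with empty vector in line 167. The part of these markers in the collagen result was not tested.

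A marker of another cell type moved with the type IV pair. Cdh5, an adhesion molecule of endothelial cells, had log2 8.29 with Smarcb1 and 9.06 with empty vector in line 365, against 3.64 with Smarcb1 and 3.78 with empty vector in line 167. Its arrays of line 167 lay below the filter level, so the size of the gap is uncertain. Of the 6 endothelial markers, 4 reached the filter level on each array of line 365 and 1 on each array of line 167. That contrast rests partly on Pecam1 and Tie1, which lay near the level of 4.27. They read 4.30 to 4.47 in line 365 and 3.95 to 4.22 in line 167. Kdr and Tie1 each differed by 0.26 between the lines and were not called. The summed endothelial marker signal, most of it from Cdh5 in line 365, was log2 8.66 with Smarcb1 and 9.28 with empty vector in line 365, against 6.59 with Smarcb1 and 6.52 with empty vector in line 167. The defining endothelial gene Pecam1 stayed between 3.95 and 4.35 on all 4 arrays, Tek between 3.75 and 3.98 and Emcn between 3.19 and 3.47. Their part in the type IV result was not tested.

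**Figure D1:**
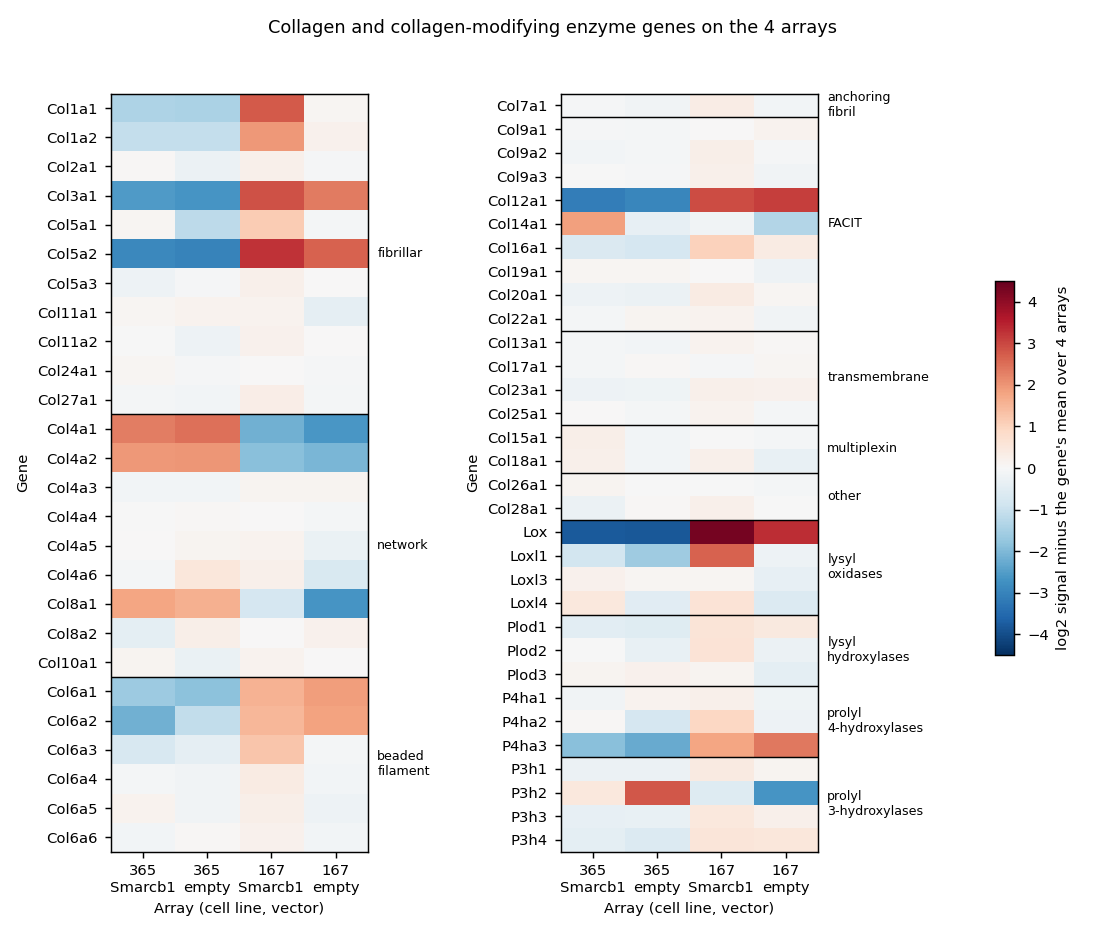
Log2 signal of the 58 genes (rows, grouped by class) on the 4 arrays (columns), each gene drawn as its difference from its own mean over the arrays; the colour bar is in log2 units, and red is above and blue below that mean. Col3a1, Col5a2, Col12a1 and Lox are blue in line 365 and red in line 167, Col4a1 and Col4a2 show the reverse, and 35 of the 58 genes span less than 1 log2 unit over the arrays.

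Col4a1 and Col4a2 are known as a head-to-head gene pair that shares a promoter region. Their promoter windows, from 250 bases before to 50 bases after the annotated start, are shown because both genes were high in line 365 and low in line 167. The sequences are from RefSeq (build GRCm38.p6), where 43 of the 58 members had a window. Capitals mark CCAAT boxes (CCAAT) and GC boxes (GGGCGG) on either strand, and no match of one motif overlapped another in these windows.
Col4a1 promoter window (chr8:11312777-11313076, minus strand): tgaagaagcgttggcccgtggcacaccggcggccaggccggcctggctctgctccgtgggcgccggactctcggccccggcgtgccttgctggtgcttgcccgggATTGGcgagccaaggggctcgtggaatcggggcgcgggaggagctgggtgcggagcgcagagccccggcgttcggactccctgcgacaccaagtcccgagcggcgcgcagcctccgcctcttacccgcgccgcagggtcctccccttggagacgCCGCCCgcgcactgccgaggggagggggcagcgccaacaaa
Col4a2 promoter window (chr8:11312555-11312854, plus strand): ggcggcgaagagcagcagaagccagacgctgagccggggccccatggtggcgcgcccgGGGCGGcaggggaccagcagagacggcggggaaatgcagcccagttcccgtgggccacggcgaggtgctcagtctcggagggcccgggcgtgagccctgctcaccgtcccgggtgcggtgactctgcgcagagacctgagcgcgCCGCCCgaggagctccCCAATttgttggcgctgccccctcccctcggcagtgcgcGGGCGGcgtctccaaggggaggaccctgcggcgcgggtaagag
The annotated starts lie 21 bases apart on opposite strands of chromosome 8, and the windows share 78 bases. Each start lies just inside the other gene, so in this annotation the genes overlap and do not count as divergent. The bases before each start in these windows thus lie within the other gene. The GC box near the end of each window is the same stretch, read from opposite strands. Col4a5 and Col4a6, another type IV pair on opposite strands of the X chromosome, have starts 1343 bases apart and windows that do not overlap. Of all 32851 windows in the table, 37.4% hold a CCAAT box and 35.7% a GC box, so these matches are common and serve as a description only.

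The 4 enzymes past the line test, Lox among them, were all lower in line 365. P4ha3, an alpha chain of prolyl 4-hydroxylase, had log2 4.41 with Smarcb1 and 4.04 with empty vector in line 365, against 8.08 with Smarcb1 and 8.66 with empty vector in line 167 (-4.15 ± 0.29, limma adjusted p = 0.00501). Its empty-vector array in line 365 lay below the filter level. Smaller differences were called for 2 brighter genes of the endoplasmic reticulum. Plod1, which hydroxylates helical lysines, had log2 9.87 with Smarcb1 and 9.80 with empty vector in line 365, against 10.90 with Smarcb1 and 10.78 with empty vector in line 167, and was 2.00-fold lower in line 365 (adjusted p = 0.0139). P3h4, a family member without known hydroxylase activity, had log2 8.57 with Smarcb1 and 8.40 with empty vector in line 365, against 9.55 with Smarcb1 and 9.53 with empty vector in line 167 (-1.05 ± 0.14, adjusted p = 0.0205). Loxl1, the lysyl oxidase best known for elastic fibres, had 5.90 with Smarcb1 and 5.09 with empty vector in line 365, against 9.36 with Smarcb1 and 6.49 with empty vector in line 167. It narrowly missed the line threshold (-2.43 ± 0.51, adjusted p = 0.0509, and 0.025 to 0.0628 over the other settings).

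P3h2, a prolyl 3-hydroxylase that acts on type IV collagen, had the widest spread among the prolyl 3-hydroxylases. It had log2 8.30 with Smarcb1 and 10.60 with empty vector in line 365, against 7.22 with Smarcb1 and 5.15 with empty vector in line 167. With empty vector the lines were 5.45 apart, and with Smarcb1 they were 1.08 apart, line 365 being higher in each case. The line test did not pass (3.26 ± 1.02, limma adjusted p = 0.112), since its residual is the difference between the lines' responses. P3h1 and P3h3, which act on fibrillar collagen, did not pass, with line differences of -0.53 ± 0.16 (adjusted p = 0.111) and -0.70 ± 0.17 (adjusted p = 0.0717).

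**Figure D2:**
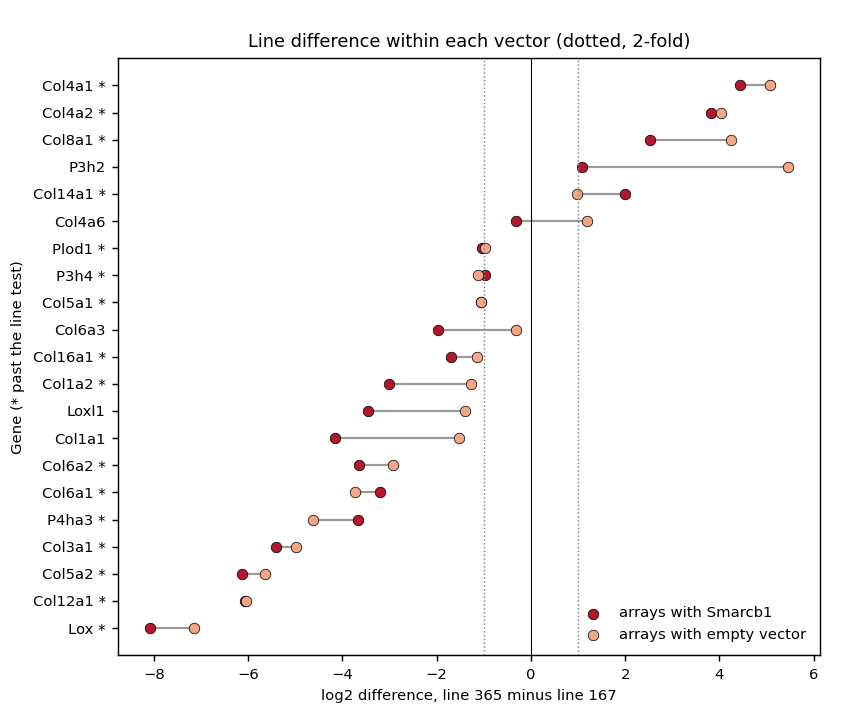
Difference in log2 signal between line 365 and line 167 (horizontal axis) for the 21 genes at least 2-fold apart with 1 vector or both (16.2% of all tested genes), drawn for the arrays with Smarcb1 (dark red) and those with empty vector (light orange); asterisks mark genes past the line test. At least 2-fold lower in line 365 with both vectors were 12 genes and higher with both 4, and P3h2 shows the widest gap between its points, at 1.08 with Smarcb1 and 5.45 with empty vector.

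Within a vector, where no test is possible, 12 members were at least 2-fold lower in line 365 with both vectors and 4 at least 2-fold higher. Over all tested genes these shares were 3.21% and 2.94%, against 20.7% and 6.9% of the members. Among the 35 members that spanned less than 1 log2 unit over the arrays were 29 collagen chains and 6 enzymes. Many of these, such as the cartilage chains Col9a1, Col9a2 and Col9a3 and the transmembrane collagens Col13a1, Col17a1, Col23a1 and Col25a1, read between 4.94 and 6.69 on every array, and whether that exceeds background was not shown. P4ha1, the major prolyl 4-hydroxylase alpha chain, was flat but bright, with log2 10.78 with Smarcb1 and 11.09 with empty vector in line 365, and 11.17 with Smarcb1 and 10.74 with empty vector in line 167. Plod3, a lysyl hydroxylase that also adds sugars to hydroxylysine, had log2 8.93 with Smarcb1 and 8.99 with empty vector in line 365, and 8.92 with Smarcb1 and 8.34 with empty vector in line 167, and likewise spanned less than 1 log2 unit.

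Smarcb1 re-expression left most collagen genes with small differences, and no member passed. In the limma test of Smarcb1 against empty vector, 0 of 58 members were called higher and 0 lower, beside 0.0645% and 0% of all tested genes. At an unadjusted p below 0.05 there were 7 members, 6 higher and 1 lower, which is 12.1% of the members beside 11.6% of all tested genes (5.88% higher and 5.68% lower). The 6 higher were Col5a1, Col14a1, Loxl1, Loxl4, P4ha2 and Plod2, and the lower one was Col6a2. The members' median change was 0.03 in line 365 and 0.33 in line 167, beside -0.01 and -0.06 over all tested genes. At any size, 35 of 58 members were higher with Smarcb1 in line 365 and 51 of 58 in line 167, beside 49.1% and 42.8% of all tested genes. Higher in both lines at any size were 32 of 58 members (55.2%), beside 26% of all tested genes. Such counts include very small differences, since 35 of the 58 members spanned less than 1 log2 unit over the arrays, many at low signal. They rest on 1 array per line and vector and were not tested, so a response of these genes was not shown by them.

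Some genes were higher in both lines without passing. At least 2-fold higher in both were 2 members, Col5a1 and Col14a1, beside 1.33% of all tested genes, and 0 members were at least 2-fold lower in both, beside 0.186%. Col5a1 had log2 7.71 with Smarcb1 and 6.44 with empty vector in line 365, and 8.76 with Smarcb1 and 7.51 with empty vector in line 167. Its mean change was 1.26 ± 0.17, a 2.39-fold increase, with limma adjusted p = 0.112. Each line was higher with Smarcb1, by nearly the same amount, 1.27 in line 365 and 1.25 in line 167. The adjusted p ranged from 0.0488 with the filter at the 50th percentile to 1 with the cell line left out of the model, and of the settings run only that filter brought it below 0.05.

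Col14a1 had log2 7.82 with Smarcb1 and 5.63 with empty vector in line 365, and 5.83 with Smarcb1 and 4.65 with empty vector in line 167. The increase was 2.19 in line 365 and 1.18 in line 167, with a mean of 1.69 ± 0.30 (limma adjusted p = 0.167). P4ha2, another prolyl 4-hydroxylase alpha chain, had 8.60 with Smarcb1 and 7.79 with empty vector in line 365, and 9.48 with Smarcb1 and 8.30 with empty vector in line 167 (mean change 1.00 ± 0.17, adjusted p = 0.162). Loxl4, a lysyl oxidase paralog, had 5.79 with Smarcb1 and 4.82 with empty vector in line 365, and 5.94 with Smarcb1 and 4.70 with empty vector in line 167 (1.11 ± 0.18, adjusted p = 0.138). For Col5a1, Col14a1, P4ha2 and Loxl4 alike, both Smarcb1 arrays lay above both empty-vector arrays. Of these, Col5a1 and Col14a1 were chosen for a 2-fold rise in both lines, and Loxl4 after its values were seen. Nothing is therefore read from this separation, and its share over all tested genes is not given. A second, dimmer Loxl4 probe set gave changes of 0.56 in line 365 and 0.69 in line 167, with both its empty-vector arrays below the filter level.

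The promoter windows of Col5a1, P4ha2 and Loxl4 are shown because these genes were higher with Smarcb1 in both lines, and capitals again mark CCAAT and GC boxes (RefSeq, GRCm38.p6).
Col5a1 promoter window (chr2:27886175-27886474, plus strand): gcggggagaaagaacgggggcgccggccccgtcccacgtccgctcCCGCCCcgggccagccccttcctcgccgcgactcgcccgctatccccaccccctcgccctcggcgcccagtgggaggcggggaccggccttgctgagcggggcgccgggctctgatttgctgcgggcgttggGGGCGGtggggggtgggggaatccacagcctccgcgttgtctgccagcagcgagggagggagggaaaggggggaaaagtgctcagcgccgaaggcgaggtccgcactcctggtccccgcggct
P4ha2 promoter window (chr11:54100674-54100973, plus strand): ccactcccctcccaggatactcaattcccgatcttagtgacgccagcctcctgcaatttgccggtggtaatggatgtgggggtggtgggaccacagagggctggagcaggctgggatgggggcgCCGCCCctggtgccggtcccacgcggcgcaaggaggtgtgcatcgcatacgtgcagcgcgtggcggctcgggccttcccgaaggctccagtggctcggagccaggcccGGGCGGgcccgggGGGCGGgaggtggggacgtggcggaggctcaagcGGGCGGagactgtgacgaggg
Loxl4 promoter window (chr19:42612757-42613056, minus strand): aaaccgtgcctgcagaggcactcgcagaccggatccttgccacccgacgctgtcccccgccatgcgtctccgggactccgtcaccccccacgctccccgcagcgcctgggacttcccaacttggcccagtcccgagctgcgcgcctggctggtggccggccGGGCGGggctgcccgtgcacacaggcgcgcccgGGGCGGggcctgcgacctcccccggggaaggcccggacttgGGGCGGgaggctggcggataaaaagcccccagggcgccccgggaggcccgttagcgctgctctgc
GC boxes numbered 2 in the Col5a1 window, 4 in the P4ha2 window and 3 in the Loxl4 window, and these letters gave no CCAAT box. No AP-1 site (TGANTCA), a motif held by 7.81% of all windows, and no TATA box spelled TATAAA, held by 13.6%, was found in the 5 windows shown.

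**Figure D3:**
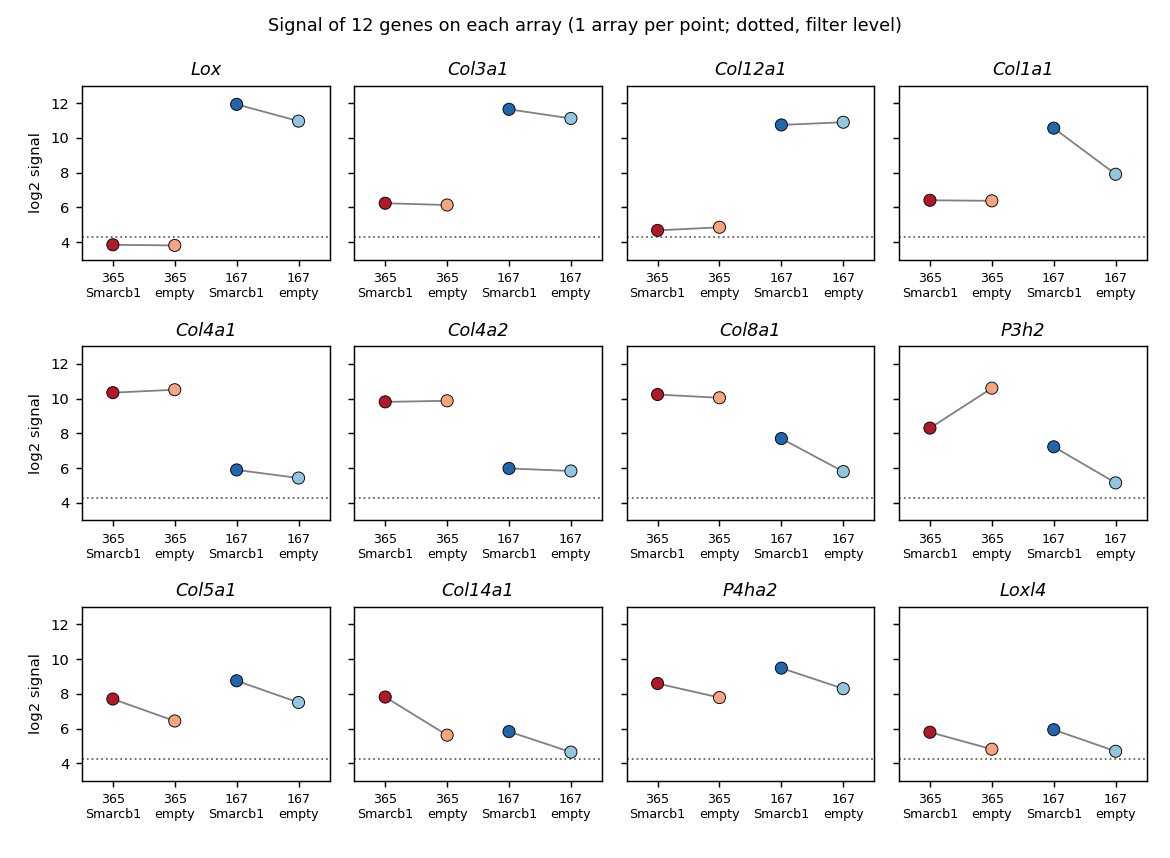
Log2 signal (vertical axis) of 12 genes on each of the 4 arrays (horizontal axis, cell line and vector), with a line joining the Smarcb1 and empty-vector arrays of a cell line and a dotted line at the filter level of 4.27. Col5a1, Col14a1, P4ha2 and Loxl4 are higher with Smarcb1 in both lines, Col1a1 is higher with Smarcb1 in line 167 (10.56 against 7.91) and level in line 365 (6.41 against 6.38), and P3h2 moves in opposite directions.

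More members passed 2-fold in line 167 than in line 365, a difference that could not be tested. At least 2-fold higher with Smarcb1 were 2 members in line 365 and 10 in line 167, and 2 members in line 365 and 0 in line 167 were at least 2-fold lower. Over all tested genes 2.84% were at least 2-fold higher in line 365 and 3.4% in line 167, and 1.17% and 1.49% were lower. Each of these values rests on 1 array per vector and has no test. The 10 members of line 167 were Col1a1, Col1a2, Col5a1, Col6a3, Col8a1, Col14a1, Loxl1, Loxl4, P3h2 and P4ha2.

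Of the 10, 4 stayed within 1.5-fold in line 365. Col1a1 was 6.29-fold higher with Smarcb1 in line 167 and differed by 0.03 log2 in line 365. Col1a2 was 3.34-fold higher in line 167 and differed by 0.0017 in line 365, and Col8a1 was 3.74-fold higher in line 167 and differed by 0.19 in line 365. Col6a3 was 2.51-fold higher in line 167 and differed by -0.32 in line 365. In line 365, Col1a1, Col1a2 and Col6a3 read log2 4.90 to 6.41, and whether that exceeds background was not shown. A lack of response there was therefore not shown for these genes, whereas Col8a1 read 10.04 to 10.23. No share of all tested genes is given for this pattern. Loxl1 was 7.31-fold higher in line 167 and 1.75-fold higher in line 365 (mean change 1.84 ± 0.51, limma adjusted p = 0.31).

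P3h2 was the member with opposite 2-fold changes, 4.92-fold lower with Smarcb1 in line 365 and 4.22-fold higher in line 167. Such opposite changes occurred in 0.043% of all tested genes. The limma mean of the 2 lines was -0.11 ± 1.02 (adjusted p = 0.975), which describes neither line. Col6a2 was 2.05-fold lower with Smarcb1 in line 365 and 1.25-fold lower in line 167 (-0.68 ± 0.23, adjusted p = 0.389). The correlation between the lines' changes was r = 0.115 across the 58 members and r = 0.441 across all tested genes; genes are not replicates, and the values share no array between the lines.

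**Figure D4:**
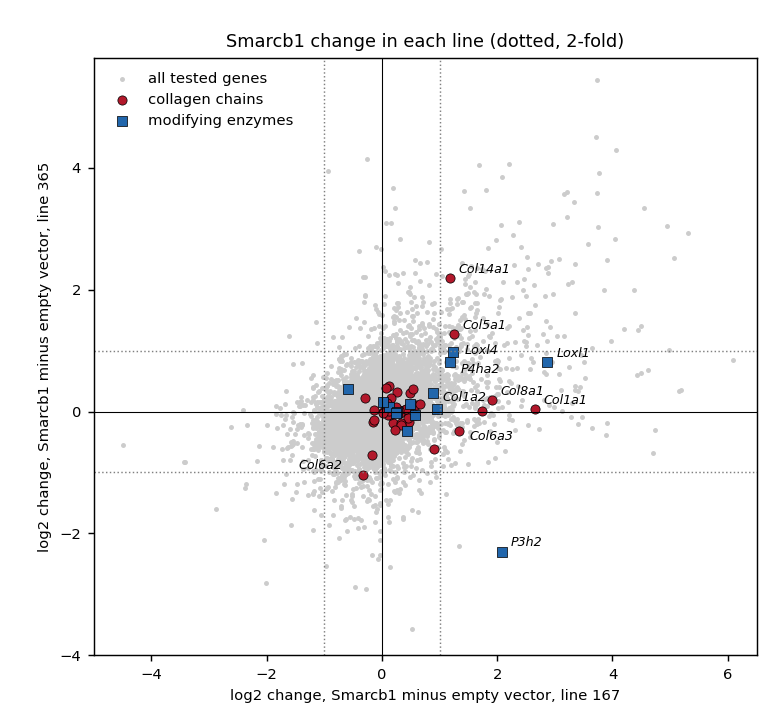
Log2 change with Smarcb1 in line 365 (vertical axis) against that in line 167 (horizontal axis), with all 13956 tested genes in grey, collagen chains as red circles and modifying enzymes as blue squares; dotted lines mark 2-fold. Col5a1 and Col14a1 pass 2-fold upward in both lines, Col1a1, Col1a2, Col8a1 and Col6a3 lie near 0 in line 365, and P3h2 lies at 2.08 in line 167 and -2.30 in line 365.

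By role, the fibrillar chains had a median change of 0.10 in line 365 and 0.53 in line 167. At any size all 11 read higher with Smarcb1 in line 167, beside 42.8% of all tested genes. These differences ran from 0.06 to 2.65 and rest on 1 array per vector. The smallest was that of Col24a1, which read log2 5.13 with Smarcb1 and 5.08 with empty vector, so a response of every chain was not shown. For the 9 network chains the median was -0.06 in line 365 and 0.15 in line 167. Col4a1 differed between vectors by -0.17 in line 365 and 0.47 in line 167, and Col4a2 by -0.06 in line 365 and 0.15 in line 167. The 4 lysyl oxidases had the largest class medians, 0.47 in line 365 and 1.10 in line 167. Each read higher with Smarcb1 in either line, but Lox differed by only 0.04 in line 365. Both of those Lox arrays lay below the filter level, so a rise of Lox in line 365 was not shown. For the 3 lysyl hydroxylases the median was 0.07 in line 365 and 0.58 in line 167. Plod2, which hydroxylates telopeptide lysines, had log2 9.84 with Smarcb1 and 9.53 with empty vector in line 365, and 10.48 with Smarcb1 and 9.59 with empty vector in line 167 (0.60 ± 0.18, limma adjusted p = 0.337).

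Genes that act beside the collagens were listed by role, and 0 of them were called higher or lower with Smarcb1 in any of 7 lists. Over all tested genes 0.0645% were called higher and 0% lower, so 0 calls in lists of this length are what those shares give. Higher with Smarcb1 in both lines at any size were 4 of 8 tested propeptide removal genes, 8 of 13 fibril-associated, 5 of 9 breakdown, 7 of 12 receptor, 6 of 21 folding and secretion, 7 of 24 transcription factor and 5 of 9 TGF-beta genes. Over all tested genes this share was 26%, and the folding and secretion and the transcription factor lists lay near it. Values are given for the 4 genes of smallest p in each list. That choice favours genes that differ alike in both lines, since the residual is the difference between the lines' responses, so nothing is read from their shared direction. In the propeptide removal list (8 tested genes), Bmp1, the procollagen C-proteinase, had log2 8.99 with Smarcb1 and 7.66 with empty vector in line 365, and 9.44 with Smarcb1 and 7.83 with empty vector in line 167 (1.47 ± 0.16, limma adjusted p = 0.0865). Tll1, a related proteinase, had log2 4.80 with Smarcb1 and 3.67 with empty vector in line 365, and 5.12 with Smarcb1 and 3.72 with empty vector in line 167 (1.27 ± 0.14, adjusted p = 0.0865), so its empty-vector arrays lay below the filter level. Pcolce, which enhances C-proteinase activity, had log2 8.00 with Smarcb1 and 6.99 with empty vector in line 365, and 10.98 with Smarcb1 and 5.99 with empty vector in line 167 (3.00 ± 0.93, adjusted p = 0.349), and Adamts14, a procollagen N-proteinase, had log2 5.15 with Smarcb1 and 4.61 with empty vector in line 365, and 6.04 with Smarcb1 and 4.97 with empty vector in line 167 (0.81 ± 0.20, adjusted p = 0.284). The gap for Pcolce was 1.01 in line 365 and 4.98 in line 167. Others of the list were lower with Smarcb1 in both lines, with Adamts3 at -0.34 in line 365 and -0.37 in line 167 and Furin at -0.19 in line 365 and -0.21 in line 167.

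Of 13 tested fibril-associated genes, Fn1, the fibronectin gene, had log2 9.41 with Smarcb1 and 6.92 with empty vector in line 365, and 11.82 with Smarcb1 and 7.93 with empty vector in line 167 (3.19 ± 0.35, limma adjusted p = 0.0865). The small proteoglycan gene Bgn had log2 5.54 with Smarcb1 and 4.39 with empty vector in line 365, and 8.75 with Smarcb1 and 4.78 with empty vector in line 167 (2.56 ± 0.67, adjusted p = 0.293), and Prelp, another of that family, had log2 5.68 with Smarcb1 and 5.09 with empty vector in line 365, and 6.45 with Smarcb1 and 5.13 with empty vector in line 167 (0.96 ± 0.24, adjusted p = 0.285). Tgfbi, a matrix adhesion protein gene, had log2 6.10 with Smarcb1 and 5.14 with empty vector in line 365, and 8.11 with Smarcb1 and 5.27 with empty vector in line 167 (1.90 ± 0.47, adjusted p = 0.278). Others of the list were lower with Smarcb1 in line 365 and higher in line 167, such as Fmod, a small proteoglycan gene, at -0.14 in line 365 and 2.26 in line 167.

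Among 9 tested breakdown genes, the collagenase gene Mmp14 had log2 9.77 with Smarcb1 and 8.68 with empty vector in line 365, and 10.58 with Smarcb1 and 9.48 with empty vector in line 167 (1.09 ± 0.13, limma adjusted p = 0.0865). Mmp13, a secreted collagenase, had log2 6.35 with Smarcb1 and 4.93 with empty vector in line 365, and 5.54 with Smarcb1 and 4.22 with empty vector in line 167 (1.36 ± 0.17, adjusted p = 0.0926). Its empty-vector array in line 167 lay below the filter level. The lysosomal protease gene Ctsb had log2 10.75 with Smarcb1 and 9.95 with empty vector in line 365, and 11.19 with Smarcb1 and 10.47 with empty vector in line 167 (0.76 ± 0.11, adjusted p = 0.121). Ctsl, another lysosomal protease gene, was slightly lower with Smarcb1, by -0.03 in line 365 and -0.14 in line 167. Mmp16, a membrane protease gene, had log2 7.65 with Smarcb1 and 6.97 with empty vector in line 365, and 7.47 with Smarcb1 and 7.26 with empty vector in line 167 (0.44 ± 0.21, adjusted p = 0.501).

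Among 12 tested receptor genes, the syndecan genes had the smallest p: Sdc2 had log2 8.73 with Smarcb1 and 7.89 with empty vector in line 365, and 9.63 with Smarcb1 and 8.82 with empty vector in line 167 (0.82 ± 0.14, limma adjusted p = 0.166), and Sdc1 had log2 8.30 with Smarcb1 and 7.72 with empty vector in line 365, and 8.36 with Smarcb1 and 7.49 with empty vector in line 167 (0.73 ± 0.17, adjusted p = 0.269). The collagen-binding integrin gene Itga1 had log2 4.82 with Smarcb1 and 4.45 with empty vector in line 365, and 5.69 with Smarcb1 and 4.37 with empty vector in line 167 (0.84 ± 0.26, adjusted p = 0.352), and the discoidin receptor gene Ddr1 had log2 6.61 with Smarcb1 and 6.02 with empty vector in line 365, and 7.55 with Smarcb1 and 7.31 with empty vector in line 167 (0.42 ± 0.20, adjusted p = 0.516). Itga11, another collagen-binding integrin gene, was lower with Smarcb1, by -0.23 in line 365 and -0.61 in line 167.

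Of 21 tested folding and secretion genes, Kdelr3, a retrieval receptor of the secretory pathway, had log2 8.25 with Smarcb1 and 7.18 with empty vector in line 365, and 9.95 with Smarcb1 and 9.27 with empty vector in line 167 (0.88 ± 0.17, limma adjusted p = 0.193). Hsp90b1, a chaperone gene, had log2 12.36 with Smarcb1 and 12.26 with empty vector in line 365, and 11.71 with Smarcb1 and 11.43 with empty vector in line 167 (0.19 ± 0.09, adjusted p = 0.534). Sec23a, a coat protein gene of the vesicles that carry procollagen, had log2 8.98 with Smarcb1 and 8.45 with empty vector in line 365, and 9.31 with Smarcb1 and 9.28 with empty vector in line 167 (0.28 ± 0.18, adjusted p = 0.599). These were closer to level than Kdelr3 in either line. Colgalt1, which adds galactose to hydroxylysine, had log2 9.15 with Smarcb1 and 9.64 with empty vector in line 365, and 9.34 with Smarcb1 and 9.37 with empty vector in line 167 (-0.26 ± 0.17, adjusted p = 0.604). Serpinh1, the collagen-specific chaperone, had log2 8.72 with Smarcb1 and 8.72 with empty vector in line 365, and 8.36 with Smarcb1 and 8.13 with empty vector in line 167. Its vectors thus differed little in either line.

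Of 24 tested transcription factors, Sox9, which drives cartilage collagens, had log2 6.90 with Smarcb1 and 6.05 with empty vector in line 365, and 8.01 with Smarcb1 and 7.29 with empty vector in line 167 (0.79 ± 0.18, limma adjusted p = 0.256). Smad3 had log2 9.15 with Smarcb1 and 8.73 with empty vector in line 365, and 9.02 with Smarcb1 and 8.69 with empty vector in line 167 (0.38 ± 0.14, adjusted p = 0.422), and Tead1 had log2 10.10 with Smarcb1 and 9.87 with empty vector in line 365, and 10.05 with Smarcb1 and 9.71 with empty vector in line 167 (0.28 ± 0.12, adjusted p = 0.473). Sox9 thus had the widest gap of these, and Smad3, which carries TGF-beta signals, and Tead1, the partner of Yap1, differed less. Each of them, Sox9 included, differed by under 1 log2 unit in either line. Fli1, whose mean change was 0.45 ± 0.17, adjusted p = 0.431, is described with the lines.

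Among 9 tested TGF-beta genes, the latent TGF-beta binding protein gene Ltbp1 had log2 9.43 with Smarcb1 and 7.54 with empty vector in line 365, and 9.12 with Smarcb1 and 8.42 with empty vector in line 167 (1.29 ± 0.31, limma adjusted p = 0.265). The ligand gene Tgfb3 had log2 8.22 with Smarcb1 and 7.93 with empty vector in line 365, and 10.16 with Smarcb1 and 8.14 with empty vector in line 167 (1.15 ± 0.43, adjusted p = 0.418), and Ccn2, a matricellular target of the pathway, had log2 8.35 with Smarcb1 and 8.28 with empty vector in line 365, and 10.77 with Smarcb1 and 7.79 with empty vector in line 167 (1.52 ± 0.68, adjusted p = 0.49). Tgfb3 and Ccn2 thus differed between vectors mainly in line 167. Tgfbr3, a coreceptor gene, had log2 6.40 with Smarcb1 and 6.18 with empty vector in line 365, and 7.62 with Smarcb1 and 6.35 with empty vector in line 167 (0.74 ± 0.31, adjusted p = 0.456).

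Between the lines, these lists held calls in both directions, to be read beside 5.31% called higher and 5.64% called lower over all tested genes. Collagen receptors had 5 of 12 tested genes called lower in line 365 and 0 higher. The discoidin receptor gene Ddr2, activated by fibrillar collagen, had log2 4.89 with Smarcb1 and 4.41 with empty vector in line 365, against 10.90 with Smarcb1 and 11.13 with empty vector in line 167 (-6.36 ± 0.23, limma adjusted p = 0.00223). The integrin gene Itga11 (-3.65 ± 0.20), the endocytic collagen receptor gene Mrc2 (-3.23 ± 0.26), Ddr1 (-1.11 ± 0.20) and Sdc2 (-0.91 ± 0.14) made up the 5. Fibril-associated genes had 3 of 13 called lower and 0 higher, the small proteoglycan genes Ogn (-6.74 ± 0.42) and Aspn (-6.61 ± 0.33) and the fibronectin gene Fn1 (-1.71 ± 0.35). In line 365 Ogn read log2 2.69 with Smarcb1 and 2.93 with empty vector and Aspn 3.10 with either, and Itga11 read 4.14 with Smarcb1. These lie below the filter level of 4.27, so signal above background was not shown there and the sizes of these differences are uncertain.

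Folding and secretion genes had 4 of 21 lower and 1 higher in line 365, again beside 5.64% lower and 5.31% higher over all tested genes, and a single call in a list of this length is about what those shares give. The lower ones were P4hb, the shared beta subunit of the prolyl 4-hydroxylases (-0.43 ± 0.09), Fkbp14, Fkbp9 and Kdelr3, and the higher one was the chaperone gene Hsp90b1 (0.74 ± 0.09). Collagen breakdown genes had 2 of 9 lower, Mmp14 and Ctsl, and 1 higher, the gelatinase gene Mmp2 (2.28 ± 0.19). Transcription factors that act on collagen genes had 4 of 24 higher in line 365 and 1 lower. Higher were the ETS factor gene Fli1, with log2 10.06 with Smarcb1 and 9.47 with empty vector in line 365, against 6.74 with Smarcb1 and 6.44 with empty vector in line 167 (3.17 ± 0.17, limma adjusted p = 0.00348), Fosl1 (2.22 ± 0.17), Nfyb (1.85 ± 0.27) and Wwtr1 (1.16 ± 0.21), and lower was Sox9 (-1.17 ± 0.18). In the TGF-beta list 1 of 9 was lower, the receptor gene Tgfbr2 (-1.55 ± 0.16), and 0 were higher, and in the propeptide removal list Adamts3 was lower and Furin higher.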

How the data were processed

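Total RNA from 4 cultures was measured on whole-transcript arrays. The authors deposited RMA signals on the log2 scale, 1 value per probe set, and the submitters' processing notes name Affymetrix Expression Console as the software. Its version and settings were not given in the sources used here. RMA corrects background and quantile-normalizes arrays, so a change of total RNA per cell cannot be seen. Array medians lay between 5.03 and 5.07.

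Symbols came from the platform annotation: 21789 of 35556 probe sets have 1 symbol, 1621 several and 12146 are unnamed here. For each gene the single-symbol probe set of highest mean was used, and genes under the 30th percentile of the gene means were left out. No symbol needed an update against RefSeq (21698 probe sets matched, 0 updated).

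limma 3.58.1 in R 4.3.3 fitted cell line and vector as additive terms (lmFit, eBayes with intensity trend). P-values are two-sided, adjusted by Benjamini-Hochberg over 13956 tested genes, threshold 0.05. The pairing follows from the cell line: same-line arrays deviated together from the vector means (r = 0.770 over genes). A single residual degree of freedom (1) remains, the difference between the lines' responses, with 3.75 prior degrees of freedom from eBayes; standard errors are moderated. Single-line values have no test. The number of arrays limits the precision. In 20 simulated data sets of 13956 genes for the Smarcb1 comparison, 13.4% of genes changed 2-fold and 91.2% of those changed 4-fold were recovered. On the arrays, Smarcb1 itself passed (10.6-fold higher, limma adjusted p = 0.0371). Fn1 (9.13-fold, adjusted p = 0.0865), Pcolce (7.99-fold, 0.349) and Bgn (5.9-fold, 0.293) did not. Recovery of genes whose response differs between the lines was not tested.

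Values on every array are given for members past a test, members 2-fold changed the same or the opposite way in both lines, the 6 largest line differences each way, the 5 brightest and 9 fixed genes, and for up to 4 genes of smallest p per pathway list. Col6a3, Col16a1, Loxl1 and Loxl4, the other line-test genes of the pathway lists and the promoters shown were chosen after their values were seen. The members and lists were chosen with earlier results of these data known. Listed genes without a value (9 of the pathway and marker lists) are not analysed here. Alternatives covered the filter, quantile normalization, the trend, the probe set rule, the threshold, the model without the line, and each line alone.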

Additional observations from a re-analysis of the deposited data

Results flagged for a closer look

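P3h2 moved in opposite directions in the lines, with a log2 change of -2.30 in line 365 and 2.08 in line 167. Col4a6, a basement membrane chain, did so as well at a smaller size, with -0.61 in line 365 and 0.91 in line 167. Each line has 1 array per vector, so the difference between the lines was not tested.

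A probe set outside the comparisons was also picked out. Probe set 10416215 carries 2 symbols in the annotation, Gm21451 and Loxl2, so its signal is assigned to neither gene. It read log2 8.74 with Smarcb1 and 5.27 with empty vector in line 365, and 9.09 with Smarcb1 and 5.89 with empty vector in line 167. The changes of 3.47 in line 365 and 3.20 in line 167 exceed those of all 58 members.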

How the results depend on the processing

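The count of members past the Smarcb1 test stayed at 0 under every other setting run except the filter at the 50th percentile, which tests fewer genes and gave 1 (Col5a1). The fit with no replicate block, which leaves the paired cell line out of the model, also gave 0 (adjusted p = 1 for Col5a1), and the calls of the 26 genes described one by one were as before. Members past the line test numbered 14 to 20 over the other settings. Members at least 2-fold changed numbered 4 in line 365 under each setting and 8 to 11 in line 167. The members' median Smarcb1 change was 0.16, and 0.03 to 0.33 with each line left out in turn; a test of a single line has no residual, so counts of calls were not computed that way. Among the described genes, the line call was gained by Col1a1, Loxl1 and P4ha2 under some settings and lost by Col1a2 and Col14a1 without the intensity trend, and 0 of the line differences turned sign. The Smarcb1 difference, which passed for none of them as reported, turned sign for 8 of 26 without line 167 (Col4a1, Col4a2, Col4a6, Col6a1, Col6a3, P4ha1, P4ha3 and Plod3) and for 1, P3h2, without line 365, and for 0 under the other settings. Signal below the filter level limits Lox, P4ha3, Ogn, Aspn and Itga11 in line 365, and Cdh5 in line 167. Low signal above that level also leaves the size of some line differences uncertain. These include Col3a1, Col5a2, Col12a1, Col6a1, Col6a2 and Ddr2 (4.41 to 4.89) in line 365, and Col4a1 and Col4a2 in line 167.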
